A study of Homo sapiens with 8 samples.

Results

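The human mitochondrial genome carries 37 genes, and all of them were followed in CYP3A4-overexpressing HepG2 cells exposed to 3 phenolic antioxidants. The members were the rows of the count table whose Ensembl identifier maps to a symbol beginning with MT-. They were 37 of 60230 rows and comprised 13 mRNAs, 2 rRNAs, and 22 tRNAs. HepG2 is an established liver cancer line, and every group carried the overexpressed drug-metabolizing enzyme CYP3A4 and was grown with serum and blasticidin. For 24 h the cells received 0.2% DMSO (control), compound **4** (labelled metylcresol), compound **5** (labelled tetrabut), or compound **6** (labelled cyclohexil). Compounds **4** and **6** join their phenol rings by a methylene bridge and carry a methyl group on each ring, with tert-butyl groups in compound **4** and cyclohexyl groups in compound **6**. Compound **5** has a methyl-substituted bridge, and its rings carry tert-butyl groups only. Each compound was given at its own IC50, so the concentrations differed, and differences between treated groups cannot be told apart from differences in concentration. Each group had 2 replicates, 8 libraries in all, and the labels number them as day 1 and day 2. Nothing in the labels says whether they were separate cultures, so the p-values measure only the spread between these samples. With 2 samples against 2, an exact two-sided permutation test cannot go below p = 0.333, and single genes were therefore tested with edgeR across all genes.

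Both strands of the circular mitochondrial DNA are transcribed by POLRMT into long precursors. The tRNAs punctuate most of the genes, and their excision releases the rRNAs and the mRNAs. The rRNAs build the mitochondrial ribosome, and the mRNAs encode core subunits of complexes I, III, and IV and of the ATP synthase (complex V), while all subunits of complex II and most subunits of the other complexes are encoded in the nucleus. Most mitochondrial mRNAs receive a short poly(A) tail, with MT-ND6 known as the exception that lacks a stable one. In several of them the tail completes the stop codon, and the rRNAs receive shorter A tails. These libraries were made with strand information after mRNA isolation, for which the paper names no method. Where mRNA is isolated through its tail, levels of mitochondrial RNA depend both on RNA abundance and on capture, and these cannot be told apart here. Likewise, fewer mitochondria per cell and less RNA per mitochondrion cannot be told apart in bulk samples.

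The library totals lay between 9472261 and 13308975 estimated counts, so that 3 counts, the floor of detection used here, equalled 0.225 to 0.317 CPM (counts scaled to the library total) for counting error only. Of the hepatocyte markers, 10 of 10 had more than 3 counts in every library, with a summed level of 43565 and 42216 CPM in the DMSO libraries and between 32668 and 39827 CPM in the treated ones, all below DMSO. Of 10 markers of other cells, between 3 and 5 exceeded 3 counts in a library and between 3 and 6 were at 0, with a summed level between 42.5 and 71.8 CPM. After compound **5** ACTA2, a smooth muscle actin, was lower (log2 fold change -1.20, adjusted p = 0.000837), and after compound **4** CD68, a lysosomal protein of macrophages, was higher (0.80, adjusted p = 0.0079). Of the 10 hepatocyte markers, 2 were higher and 3 lower after compound **4** (11.9% of all tested genes were called), 0 and 3 after compound **5** (13.9% higher and 14.2% lower), and 0 and 2 after compound **6** (4.40% called). The apolipoprotein APOA1 was lower in each case (-0.66, -0.78, and -0.74), the thyroxine carrier TTR was higher after compound **4** (0.66, adjusted p = 0.0365), and the iron carrier TF was lower after compounds **5** (-0.40) and **6** (-0.55). After compound **4** TF also lay below DMSO, at 3538 and 4058 against 5704 and 5469 CPM (scaled by TMM). The part of these shifts in the mitochondrial values was not tested.

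The 3 transcripts that rose after compound **5** were MT-RNR1, MT-RNR2, and MT-CYB. Their last 30 bases are shown because the tails of these RNAs are added at or near the gene end, beside those of MT-ND5, MT-ND4, and MT-CO1, which were not called. The mRNAs of MT-ND5 and MT-CO1 are known to run on past the stop codon, so their printed ends are gene ends and not tail sites. Capitals mark the stop codon, or the part of it that the gene itself encodes, and the rRNAs have none. The sequences are from GENCODE 29 transcripts on GRCh38, plus strand.
MT-RNR1 (chrM:1572-1601): aagtgtactggaaagtgcacttggacgaac
MT-RNR2 (chrM:3200-3229): tatacccacacccacccaagaacagggttt
MT-CYB (chrM:15858-15887): taattgaaaacaaaatactcaaatgggccT
MT-ND5 (chrM:14119-14148): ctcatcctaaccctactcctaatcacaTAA
MT-ND4 (chrM:12108-12137): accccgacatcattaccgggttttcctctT
MT-CO1 (chrM:7416-7445): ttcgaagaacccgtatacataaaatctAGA

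MT-CYB and MT-ND4 share the single T that the tail completes to a stop codon, and MT-CYB rose while MT-ND4 was not called. Among the 13 mRNAs the tail completes the stop codon in 6, namely MT-ND1, MT-ND2, MT-CO3, MT-ND3, MT-ND4, and MT-CYB. The internal A runs of the 3 genes lay within the range of the other genes. The longest run was 6 bases in MT-RNR1, 7 in MT-RNR2, and 4 in MT-CYB, and between 3 and 8 over the 15 genes with counts. Adenine made up 33.0%, 35.1%, and 28.6% of these 3 genes and between 19.6% and 38.7% of the 15. The part of the tail and of internal A runs in the rise was not tested.

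Mitochondrial transcripts took a larger share of the counts in all treated libraries than in the DMSO libraries, and after compound **5** the excess lay in the rRNAs. The 37 genes held 4.91% and 5.12% of all counts in the DMSO replicates. They held 5.46% and 5.31% after compound **4**, 6.15% and 5.87% after compound **5**, and 5.58% and 6.21% after compound **6**. The group means were 5.02% ± 0.15 (SD, n = 2) with DMSO, 5.38% ± 0.10 after compound **4**, 6.01% ± 0.20 after compound **5**, and 5.90% ± 0.45 after compound **6**. The treated and control libraries did not overlap, and the order of compounds **5** and **6** was not resolved, since the compound **6** replicates lay on either side of both compound **5** replicates. Wilson 95% intervals of these shares reached at most 0.0146 percentage points to either side, for counting error only.

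The mRNAs and the rRNAs were summed apart. The 13 mRNAs took 3.71% and 3.87% of the counts with DMSO, 4.04% and 3.65% after compound **4**, 3.98% and 3.42% after compound **5**, and 4.19% and 4.31% after compound **6**. For compounds **4** and **5** the replicates fell on both sides of the DMSO range, whereas both compound **6** libraries lay above it. The 2 rRNAs took 1.20% and 1.25% with DMSO, 1.41% and 1.66% after compound **4**, 2.17% and 2.45% after compound **5**, and 1.38% and 1.90% after compound **6**. The mean rRNA share after compound **5** was 1.88 times that with DMSO, compared with 1.25 times for compound **4** and 1.34 times for compound **6**.

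**Figure D1:**
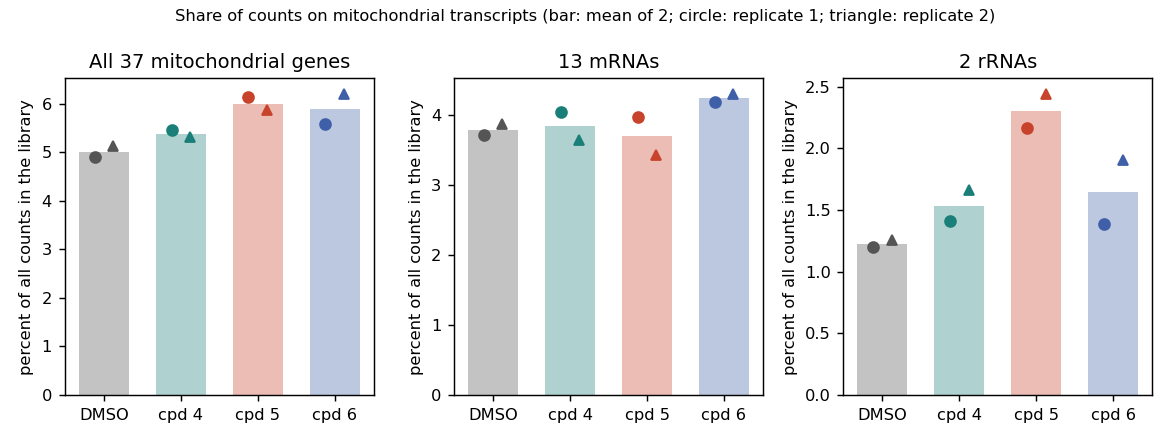
Percent of all counts in a library on all 37 mitochondrial genes (left), the 13 mRNAs (middle), and the 2 rRNAs (right), by treatment. Bars are means of 2 replicates, circles are replicate 1, and triangles are replicate 2. The rRNA share reached 2.17% and 2.45% after compound **5** against 1.20% and 1.25% with DMSO, while the mRNA shares of these groups overlapped.

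A ratio within the mitochondrial transcripts does not depend on scaling to nuclear genes. The rRNA counts were 0.323 and 0.324 times the mRNA counts in the DMSO replicates. The ratio was 0.349 and 0.456 after compound **4**, 0.545 and 0.714 after compound **5**, and 0.330 and 0.442 after compound **6**. The compound **5** libraries had the 2 highest values, and replicate 2 was above replicate 1 in each treated group.

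The mitochondrial rRNAs, the RNA core of the small (MT-RNR1) and the large (MT-RNR2) subunit of the mitochondrial ribosome, are encoded next to each other and close to the start of the heavy-strand transcript. MT-RNR1 (chrM:648-1601) was at 2057 and 1939 CPM with DMSO, 2356 and 2453 after compound **4**, 4428 and 4152 after compound **5**, and 2520.5 and 2547 after compound **6** (CPM scaled by TMM, as for all levels of single genes that follow). Both compound **5** libraries were far above all others, and the compound **4** and **6** libraries lay narrowly above DMSO. Its log2 fold change after compound **5** was 1.10 (SE 0.098, 95% interval 0.89 to 1.32, edgeR adjusted p = 9.66e-05). After compound **4** it was 0.27 (adjusted p = 0.102) and after compound **6** 0.34 (adjusted p = 0.0713), neither of which passed the threshold of 0.05. After compound **6** it was called by DESeq2 (adjusted p = 0.00909) and by edgeR with no filter on low counts (adjusted p = 0.0183).

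MT-RNR2 (chrM:1671-3229) was at 9692 and 10150.5 CPM with DMSO, 11669.6 and 14222 after compound **4**, 18214 and 21399.6 after compound **5**, and 11154 and 16351 after compound **6**. The treated libraries were all above DMSO, and replicates 1 and 2 of compound **6** stood far apart. The log2 fold change after compound **5** was 1.00 (SE 0.17, interval 0.61 to 1.38, adjusted p = 0.00237). It was 0.38 (adjusted p = 0.180) after compound **4** and 0.47 (adjusted p = 0.153) after compound **6**. With no filter edgeR called it for both compounds (adjusted p = 0.00057 and 1.3e-05), and for compound **6** it was also called by DESeq2 (adjusted p = 0.044). With 1 library left out, its change after compound **6** lay between 0.18 and 0.75. Nuclear RNAs without a poly(A) tail, a list of 21 genes (RN7SL1, RN7SK, and others) chosen after values had been seen, were summed as CPM of the library total without TMM scaling. They reached 452 and 613 CPM with DMSO, 542 and 642 after compound **4**, 487 and 464 after compound **5**, and 632 and 645 after compound **6**. The part of untailed RNA in the mitochondrial rRNA values was not tested.

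**Figure D2:**
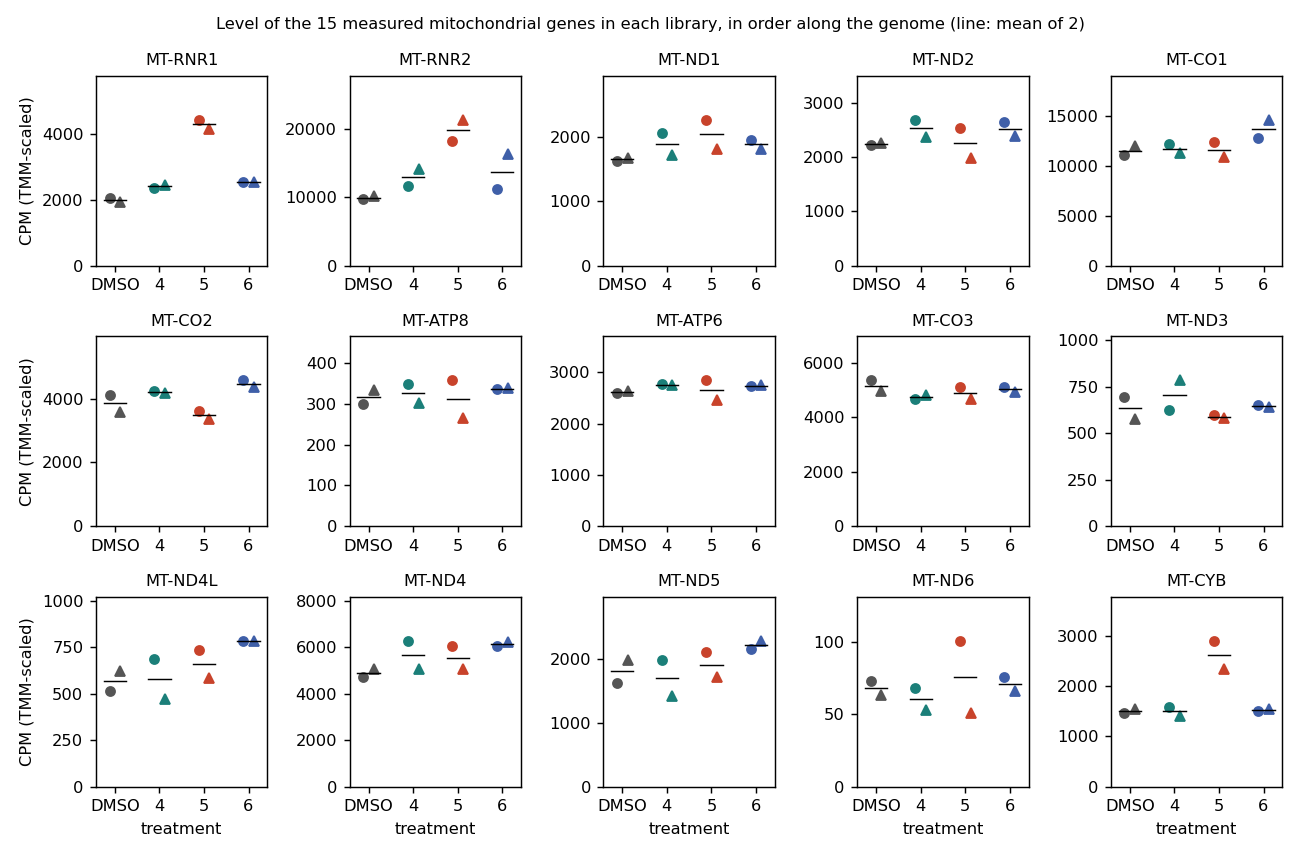
TMM-scaled CPM of the 15 mitochondrial genes with counts in each of the 8 libraries, in gene order, with replicate 1 as circles, replicate 2 as triangles, and the mean of 2 as a line; each axis starts at 0. MT-RNR1, MT-RNR2, and MT-CYB show both compound **5** libraries above every other library, and no other gene does.

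Complex III takes electrons from ubiquinol to cytochrome c, and MT-CYB, its cytochrome b subunit, is its only mitochondrially encoded member. The gene (chrM:14747-15887) is the last mRNA gene of the heavy-strand transcript, at the far end from the rRNA genes. MT-CYB was at 1458 and 1537 CPM with DMSO, 1576 and 1414 after compound **4**, 2897 and 2335 after compound **5**, and 1509.9 and 1547 after compound **6**. Only the compound **5** libraries stood apart, and the other 3 groups overlapped. The log2 fold change after compound **5** was 0.80 (SE 0.12, interval 0.54 to 1.07, adjusted p = 0.00105). It was -0.002 after compound **4** (interval -0.27 to 0.26) and 0.03 after compound **6** (interval -0.24 to 0.29). Among the mitochondrial mRNA counts alone, MT-CYB took 4.01% and 4.12% with DMSO, 3.92% and 3.86% after compound **4**, 6.97% and 6.53% after compound **5**, and 3.65% and 3.62% after compound **6**. Its ratio to the neighbouring MT-ND5 was 0.898 and 0.774 with DMSO, 0.797 and 0.995 after compound **4**, 1.38 and 1.37 after compound **5**, and 0.703 and 0.679 after compound **6**.

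Complex I, NADH dehydrogenase, has 7 mitochondrially encoded subunits, and edgeR with the filter and all 8 libraries called 0 of the 7 for any compound. Of all tested genes, 11.9% were called after compound **4**, 13.9% higher and 14.2% lower after compound **5**, and 4.40% after compound **6**. The lowest MT-ND1 library of compound **5** was at 1822 CPM and the highest DMSO library at 1684, with 2277 in the other compound **5** library and 1630.3 in the other DMSO library. Its log2 fold change was 0.31 (interval 0.02 to 0.59, adjusted p = 0.100), while it was called by DESeq2 (0.34, adjusted p = 0.0393), by edgeR with no filter on low counts (adjusted p = 0.0129), and by edgeR with only these groups in the fit (adjusted p = 0.0401). With 1 library left out, the MT-ND1 change lay between 0.16 and 0.46. MT-ND4 was at 4702 and 5046 CPM with DMSO, 6277 and 5072 after compound **4**, 6049 and 5048 after compound **5**, and 6059 and 6225 after compound **6** (0.33, adjusted p = 0.178), and all treated libraries lay above DMSO. MT-ND4L was at 517 and 621 CPM with DMSO, at 784 and 782 after compound **6** (0.46, adjusted p = 0.169). Both compound **6** libraries exceeded both DMSO libraries for these 2 genes, as for 26.3% of all tested genes, and the differences did not pass the test. With no filter edgeR called MT-ND4 (adjusted p = 0.014) and MT-ND4L (adjusted p = 0.00217), and with only these groups in the fit it called MT-ND4L (adjusted p = 0.0343). MT-ND5 was at 1624 and 1985 CPM with DMSO and at 2102 and 1709 after compound **5**, so the groups overlapped, and at 2147 and 2277 after compound **6**, both above DMSO (0.29, adjusted p = 0.358). MT-ND6, the mRNA of the opposite strand, was the least abundant, at 73.3 and 63.6 CPM with DMSO and 101 and 51.0 after compound **5**, whose replicates differed more than the groups did. The other subunits, MT-ND2 and MT-ND3, had log2 fold changes between -0.10 and 0.17 over the 3 compounds.

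Complex IV, cytochrome c oxidase, has 3 mitochondrially encoded subunits, which form its catalytic core. They held the largest part of the mitochondrial mRNA counts, a mean of 55.8% with DMSO, 53.9% after compound **4**, 51.8% after compound **5**, and 55.1% after compound **6**. MT-CO1 was at 11064 and 11980.0 CPM with DMSO and 12783 and 14642 after compound **6** (0.25, adjusted p = 0.259). MT-CO2 was at 4121 and 3584 CPM with DMSO, 3599 and 3356 after compound **5**, and 4575 and 4352 after compound **6**. The changes of MT-CO2 against DMSO were -0.15 and 0.21, and neither was called. MT-CO3 lay between 4694 and 5367 CPM in all 8 libraries.

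Complex V, the ATP synthase, has 2 mitochondrially encoded subunits, MT-ATP6 and MT-ATP8. MT-ATP6 lay between 2464 and 2848 CPM and MT-ATP8 between 267 and 358 CPM in all 8 libraries. For any compound 0 of the 2 was called, against 11.9% of all tested genes after compound **4**, 13.9% higher and 14.2% lower after compound **5**, and 4.40% after compound **6**. The 2 genes share 46 bases (chrM:8527-8572) and are carried on a common mRNA, as are MT-ND4L and MT-ND4, which overlap by 7 bases. Reads there can be split between the partners by the quantification, so the separate values of these 4 genes are uncertain. The ATP8/ATP6 overlap is shown in capitals with its flanks (chrM:8507-8592, plus strand), followed by that of ND4L/ND4 (chrM:10740-10786).
MT-ATP8/MT-ATP6: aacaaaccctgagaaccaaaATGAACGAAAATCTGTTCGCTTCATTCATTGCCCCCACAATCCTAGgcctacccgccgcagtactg
MT-ND4L/MT-ND4: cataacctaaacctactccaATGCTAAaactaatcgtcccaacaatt

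The 22 tRNAs, 59 to 75 bases long, were at 0 counts in all 8 libraries, which allows up to 0.225 to 0.317 CPM each for counting error only. No tRNA could therefore be compared. MT-TL1, which separates the rRNA genes from MT-ND1 and in which the termination factor MTERF1 is known to bind, is shown as the border of the rRNA genes. After compound **5** both rRNAs rose, MT-ND1 was not called in the main fit (0.31), and MT-CYB, further along, rose (0.80). The part of termination in these values was not tested.
MT-TL1 (chrM:3230-3304, plus strand): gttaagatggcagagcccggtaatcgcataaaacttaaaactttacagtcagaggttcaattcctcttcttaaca

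Levels of different genes can be compared only per length. In DMSO, MT-CO1 was highest, at 7472 ± 420 CPM per kilobase (SD, n = 2), ahead of MT-CO3 at 6596 ± 354, MT-RNR2 at 6364 ± 208, and MT-CO2 at 5632 ± 556. The ranges of MT-CO3 and MT-RNR2 overlapped, so their order was not resolved. MT-ATP6 (3840 ± 36.3) and MT-ND4 (3537 ± 177) followed. The next genes from MT-ND2 (2151 ± 18.2) to MT-CYB (1313 ± 49.2) included MT-RNR1 (2095 ± 87.5), and MT-ND5 (996 ± 141) and MT-ND6 (130.4 ± 13.1) were lowest. After compound **5**, MT-RNR2 at 12705 ± 1445 CPM per kilobase was above MT-CO1 at 7536 ± 673, and these did not overlap.

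Across the 15 genes with counts, 3 were called after compound **5**, all of them higher, against 13.9% of the 13404 tested genes called higher and 14.2% called lower. After compound **4** 0 of 15 were called by edgeR (11.9% of all tested genes were called), and 2 had an unadjusted p under 0.05, MT-RNR1 and MT-RNR2. Ordered by p among the 13404 tested genes, MT-RNR1 ranked only 2482 and MT-RNR2 only 3564. After compound **6** 0 of 15 were called (4.40% of all tested genes), and 4 had an unadjusted p under 0.05, MT-RNR1, MT-RNR2, MT-ND4, and MT-ND4L. In that order they ranked 902, 1725, 1976, and 1899 by p among the 13404 tested genes. The calls depended on the tool and the filter: for compounds **4**, **5**, and **6**, DESeq2 called 0, 4, and 2 members, and the edgeR fit without a filter on low counts 1, 4, and 4. The median log2 fold change of the 15 was 0.08 after compound **4**, 0.08 after compound **5**, and 0.19 after compound **6**, against 0.0001, -0.03, and 0.003 over all tested genes. Both treated libraries lay above both DMSO libraries for 7 of 15 genes after compound **4** (27.5% of all tested genes), 5 of 15 after compound **5** (32.9%), and 11 of 15 after compound **6** (26.3%). The 3 comparisons share their DMSO libraries.

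**Figure D3:**
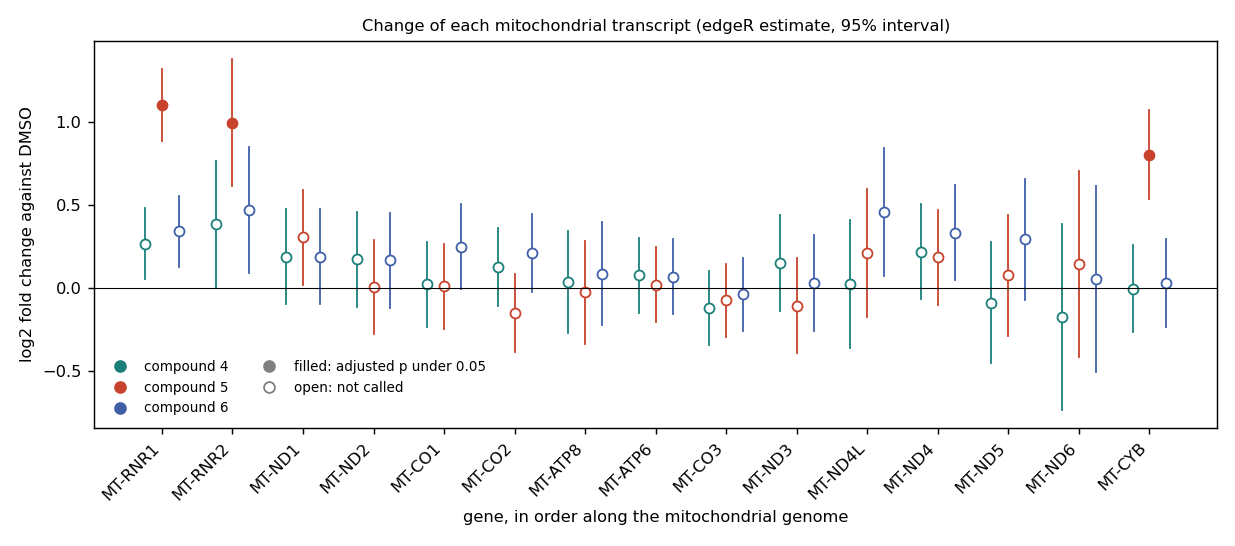
Log2 fold change against DMSO with its 95% interval (edgeR) for the 15 mitochondrial genes with counts, in their order along the genome; filled points have an adjusted p under 0.05. The only filled points are MT-RNR1 (1.10), MT-RNR2 (1.00), and MT-CYB (0.80) after compound **5**.

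The treated groups were also compared directly, as 3 pairs, each adjusted over all tested genes. Compound **5** exceeded compound **4** for 3 of 15 members, while 6.91% of all genes were called higher in that pair. MT-CYB differed by 0.81 on the log2 scale (SE 0.12, adjusted p = 0.00555), MT-RNR1 by 0.84 (SE 0.097, adjusted p = 0.00344), and MT-RNR2 by 0.61 (SE 0.17, adjusted p = 0.0416). MT-RNR2 was not called in this pair when any 1 of the 4 libraries was left out, with upper-quartile scaling, or with library size alone, and without replicate 1 of compound **5** only MT-RNR1 was called.

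Compound **5** exceeded compound **6** for 2 of 15 members (4.76% of all genes were called higher). MT-CYB differed by 0.78 (SE 0.12, adjusted p = 0.00509) and MT-RNR1 by 0.76 (SE 0.097, adjusted p = 0.00247). MT-RNR2 differed by 0.53 (interval 0.15 to 0.91, adjusted p = 0.0783). It was called, as the third member, when the replicate number was added as a block, and also with DESeq2, with no filter, and without replicate 2 of compound **6**. The difference for MT-CO2 was -0.36 (adjusted p = 0.0556), and it passed the threshold with DESeq2, no filter, upper-quartile scaling, library size alone, and only the groups compared. Without replicate 1 of compound **5**, or of compound **6**, 1 member was called, MT-RNR1 both times.

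Compounds **4** and **6** differed in 0 of 15 members by edgeR, 2 of which had an unadjusted p under 0.05 (0.0448% of all genes were called). The difference of compound **4** minus compound **6** was -0.03 for MT-CYB (interval -0.30 to 0.23), -0.08 for MT-RNR1 (-0.29 to 0.14), and -0.09 for MT-RNR2 (-0.47 to 0.29). These intervals leave room for differences of either sign. The 2 genes with an unadjusted p under 0.05 were MT-ND4L (-0.44, interval -0.82 to -0.05, adjusted p = 0.467) and MT-ND5 (-0.38, interval -0.74 to -0.02, adjusted p = 0.493), and both were called with no filter on low counts. Ordered by p, they ranked 865 and 1154 among the 13404 tested genes.

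Nuclear pseudogenes copied from mitochondrial genes can take up reads of the originals. Of 404 such genes in the table, 5 passed the filter and 0 of these was called for any compound. The shares of all tested genes called were 11.9% after compound **4**, 13.9% higher and 14.2% lower after compound **5**, and 4.40% after compound **6**. The pseudogene counts made up between 0.736% and 0.981% of the counts on mitochondrial genes and pseudogenes together. MTATP6P1 held most of them, with 4008 and 5174 counts with DMSO and 4483 and 5254 after compound **5**, and its log2 fold change after compound **5** was 0.01. For MTND2P28, MTCO1P12, MTND4P12, and MTND1P23 it lay between -0.09 and 0.02. Of all stretches of 31 bases, MT-RNR1 shared 0% with nuclear genes, MT-CYB 4.95%, and MT-RNR2 31.7%, compared with 66.7% for MT-CO1 and 62.8% for MT-ATP6. The nuclear gene that shared most with MT-RNR2 was MTRNR2L12 (22.4%), which was not examined. The pseudogenes with counts included no copy of MT-RNR1, MT-RNR2, or MT-CYB, so they cannot show whether reads of these genes were taken up.

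The nuclear-encoded subunits that were called after compound **5** were all lower. Of 79 tested nuclear genes for complexes I to V, 21 were lower (14.2% of all tested genes) and 0 higher (13.9%), with a median log2 fold change of -0.26 against -0.03 over all genes. When 1 library was left out, the number of lower genes fell to 1 without DMSO replicate 1, 8 without DMSO replicate 2, 3 without compound **5** replicate 1, and 5 without compound **5** replicate 2, with 0 higher each time and a median between -0.33 and -0.17. Compound **4** had 1 called gene among the 79 (11.9% of all tested genes), NDUFV2 (0.44, adjusted p = 0.0186), a complex I subunit that was higher. Compound **6** had 0 (4.40% of all tested genes). In complex I 11 of 37 nuclear subunits were lower after compound **5**, from NDUFS6 (-0.37) to NDUFB1 (-0.86, adjusted p = 0.00567), and in complex V 6 of 18, from ATP5MF (-0.40) to ATP5MC1 (-0.56, adjusted p = 0.0126). In complex III, UQCRQ (-0.61, adjusted p = 0.0164) and UQCR10 (-0.43) were lower among 9, beside the higher MT-CYB. In complex IV NDUFA4 (-0.47) was lower among 11, and in complex II, which has no mitochondrially encoded subunit, SDHC (-0.43) was lower among 4.

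**Figure D4:**
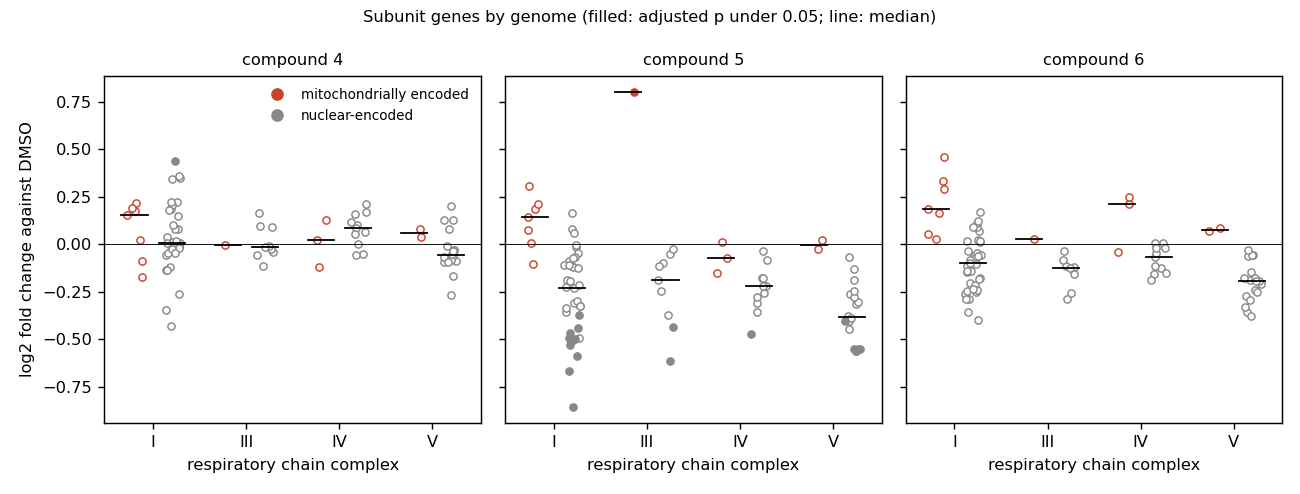
Log2 fold change against DMSO of mitochondrially encoded (red) and nuclear-encoded (grey) subunit genes of complexes I, III, IV, and V for each compound; filled points have an adjusted p under 0.05 and lines are medians. After compound **5** the filled grey points all lie below 0, and MT-CYB, the only red point of complex III, lies at 0.80.

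The proteins of the mitochondrial ribosome, which assemble on MT-RNR1 and MT-RNR2, are encoded in the nucleus. After compound **5** 16 of 78 were lower (14.2% of all tested genes) and 0 higher (13.9%), with a median of -0.21, from MRPS21 (-0.36, adjusted p = 0.0418) to MRPL39 (-0.77, adjusted p = 0.00397), a protein of the large subunit. The count depended on single libraries, with 2 lower genes without DMSO replicate 1, 7 without DMSO replicate 2, 2 without compound **5** replicate 1, and 9 without compound **5** replicate 2. MRPL39 was at 19.99 and 18.7 CPM with DMSO and at 11.7 and 10.9 after compound **5**, with no overlap. It was also the 1 gene of this list called after compound **6** (-0.65, adjusted p = 0.0372), where 4.40% of all tested genes were called. Compound **4** had 0 (11.9% of all tested genes). Both rRNAs rose in the libraries in which these 16 protein genes were lower.

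Of 9 genes of mitochondrial transcription, 0 was called after compound **5** (13.9% of all tested genes were called higher and 14.2% lower). The polymerase POLRMT changed by 0.33 (adjusted p = 0.0598), the transcription and packaging factor TFAM by -0.26 (adjusted p = 0.0869), the initiation factor TFB2M by 0.01, and the elongation factor TEFM by -0.16. TFAM was at 87.4 and 96.5 CPM with DMSO and at 68.7 and 73.2 after compound **4**, a change of -0.37 (adjusted p = 0.0413). It was the only one of the 9 called for any compound, while 11.9% of all tested genes were called after compound **4** and 4.40% after compound **6**. After compound **6** TFAM was at 75.9 and 70.9 CPM (-0.33, adjusted p = 0.105).

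Of 20 genes that process or stabilize mitochondrial RNA, 2 were higher (13.9% of all tested genes) and 3 lower (14.2%) after compound **5**, counts near that background. For compounds **4** and **6** 0 was called (11.9% and 4.40% of all tested genes). PTCD2, a pentatricopeptide protein known to act in the maturation of the cytochrome b mRNA, was at 13.1 and 12.8 CPM with DMSO and at 7.5 and 7.4 after compound **5** (-0.80, adjusted p = 0.00325). It was the lowest of the list while MT-CYB was higher. REXO2, an exonuclease that degrades short RNAs in mitochondria, was the highest called (0.43, adjusted p = 0.0478). LRPPRC (0.15) and SLIRP (-0.35, adjusted p = 0.0841), which together stabilize mitochondrial mRNAs, were not called.

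Of 14 genes that maintain mitochondrial DNA, 1 was higher and 2 lower after compound **5**, near the 13.9% and 14.2% of all tested genes. TOP1MT, the mitochondrial topoisomerase, was higher (0.34, adjusted p = 0.0329), and the primase PRIMPOL was lower (-1.19, adjusted p = 0.0143). The polymerase POLG (0.21) and the helicase TWNK (0.14) were not called. RNASEH1, which removes RNA from RNA and DNA hybrids, was higher after compound **4** (0.38, adjusted p = 0.0324). Of 14 translation factors, the release factor MTRF1 (-0.57, adjusted p = 0.0431) and TACO1, which activates the translation of MT-CO1 (-0.39, adjusted p = 0.0422), were lower after compound **5**, a count near the 14.2% of all tested genes.

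Among 9 tested nuclear regulators of mitochondrial genes, 3 were higher and 0 lower after compound **5**, against 13.9% and 14.2% of all tested genes. PPARGC1A, the coactivator PGC-1α, was at 25.3 and 29.2 CPM with DMSO and 52.7 and 48.8 after compound **5** (0.90, adjusted p = 0.00183), and PPRC1, a related coactivator, had the lowest change of the 3 (0.56, adjusted p = 0.00769). PPARGC1A changed by 0.30 after compound **4** and 0.34 after compound **6**, and neither was called. Of 11 genes of protein import and mitochondrial proteases, 4 were higher after compound **5** (13.9% of all tested genes), from CLPX (0.32, adjusted p = 0.0329) to the import chaperone HSPA9, which was at 558 and 579 CPM with DMSO and 818 and 851 after compound **5** (0.55, adjusted p = 0.00646).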

How the data were processed

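RNA from 8 samples in 4 groups of 2 was analysed. The authors quantified strand-specific libraries of isolated mRNA with Salmon 1.5.0 on GENCODE 38 and used tximeta to sum transcripts by gene. Their deposited table gives estimated counts as whole numbers, with no scaling between libraries. By the labels, replicate 1 of compounds **4** and **5** was merged from 2 parts with different S numbers, which the labels do not explain. Symbols were found for 60089 of 60230 identifiers.

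Counts were scaled by TMM and filtered with filterByExpr in edgeR 4.0.16 (R 4.3.3), leaving 13404 genes, 15 of them mitochondrial. A quasi-likelihood model was fitted to all 8 samples, with Benjamini-Hochberg adjustment over all genes and a threshold of 0.05. Shares of counts were described and not tested. Alternatives were DESeq2 1.42.0, other scalings, filters and thresholds, addition of pseudogene counts, a replicate block, and leaving out each library. The procedure was tested on simulated data. Sequences and coordinates came from GENCODE 29.

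All 15 genes with counts were named. From each nuclear list the called genes with the highest and lowest change were named for each compound, as were POLRMT, TFAM, TFB2M, TEFM, LRPPRC, SLIRP, POLG, TWNK, and PPARGC1A, and pseudogenes with a mean of at least 1 CPM. Members and lists were chosen with earlier results of these data known.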

Additional observations from a re-analysis of the deposited data

Results flagged for a closer look

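Effects against DMSO differed between compounds by direct edgeR tests for 3 genes. Compound **5** exceeded compound **4** by 0.81 on the log2 scale for MT-CYB, by 0.84 for MT-RNR1, and by 0.61 for MT-RNR2. Compound **5** exceeded compound **6** by 0.78 for MT-CYB and by 0.76 for MT-RNR1. Against compound **4**, the MT-RNR2 call was lost when any 1 of the 4 libraries was left out, with upper-quartile scaling, and with library size alone, and the MT-CYB call was lost without replicate 1 of compound **5**. Against compound **6**, the MT-CYB call was lost without replicate 1 of compound **5** and without replicate 1 of compound **6**. Each compound was given at its own IC50, and the part of the concentration in these differences cannot be told apart from that of the compound.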

How the results depend on the processing

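The 3 calls of compound **5** against DMSO kept their direction and passed the threshold in all 45 alternative values, with log2 fold changes of 0.998 to 1.148 for MT-RNR1, 0.88 to 1.14 for MT-RNR2, and 0.67 to 0.95 for MT-CYB, and adjusted p of at most 0.0027, 0.0261, and 0.0163. The setting with pseudogene counts added gave these 3 genes no extra counts, so it could not test their calls. The deviations of same-numbered replicates correlated between -0.08 and 0.16 over genes, with 2 pairs only, so the numbers were not taken to pair samples. With the replicate block 3 members were called for compound **5** against DMSO, 3 against compound **4**, and 3 against compound **6**, in place of 3, 3, and 2, and 0 for compounds **4** and **6** against DMSO. Under the block the lower nuclear respiratory chain genes were 22 in place of 21 and the lower mitochondrial ribosomal protein genes 15 in place of 16, and no other call of a mitochondrial gene changed. With it MT-ND2 for compound **5** had a value of -0.0033.

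Members called for compound **4** against DMSO became 1 with no filter. For compound **5** they became 4 with DESeq2, no filter, and only the groups compared, each adding MT-ND1. With library size alone MT-CO2 was also called lower for compound **5** against compound **4**. For compound **6** they became 2 with DESeq2, 4 with no filter, and 1 with only the groups compared. For compound **5** against compound **6** they became 4 with DESeq2 and 4 with no filter, 3 higher and 1 lower (MT-CO2) each time, and for compound **4** against compound **6** 2 with no filter. When 1 library was left out, between 1 and 4 members were called for compound **5** against compound **4**, between 1 and 3 for compound **5** against compound **6**, and between 0 and 1 for compound **6** against DMSO, where MT-RNR2 was called without replicate 1 of compound **6** (0.75, adjusted p = 0.0242). The causes were not tested.

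Of 675 single-gene values, 42 changed sign, all in comparisons in which the gene was not called in the main fit. With library size alone these were, for compound **4**, MT-CO1 (-0.017), MT-ND4L (-0.016), and MT-ATP8 (-0.0028), and for compound **5**, MT-ND2 (-0.098), MT-ND5 (-0.028), MT-CO1 (-0.093), and MT-ATP6 (-0.083). With upper-quartile scaling they were, for compound **5**, MT-ND2 (-0.078), MT-ND5 (-0.0062), MT-CO1 (-0.073), and MT-ATP6 (-0.063). MT-ATP8 for compound **5** was 0.0063 with DESeq2 and 0.0027 with no filter. With 1 library left out, values for compound **4** ranged from -0.067 to 0.15 for MT-ATP8, -0.035 to 0.094 for MT-CO1, -0.083 to 0.089 for MT-CYB, -0.0092 to 0.31 for MT-ND3, -0.28 to 0.29 for MT-ND4L, -0.34 to 0.15 for MT-ND5, and -0.37 to 0.018 for MT-ND6. For compound **5** they ranged from -0.059 to 0.12 for MT-ATP6, -0.23 to 0.17 for MT-ATP8, -0.054 to 0.10 for MT-CO1, -0.15 to 0.17 for MT-ND2, -0.21 to 0.037 for MT-ND3, -0.059 to 0.25 for MT-ND5, and -0.40 to 0.56 for MT-ND6. For compound **6** they ranged from -0.0895 to 0.018 for MT-CO3, -0.0085 to 0.074 for MT-CYB, -0.096 to 0.17 for MT-ND3, and -0.043 to 0.16 for MT-ND6. With compound **5** the median of all genes was -0.14 with library size alone and -0.12 with upper-quartile scaling, against -0.03 with TMM.

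In alternatives chosen after seeing the data, the number of lower nuclear respiratory chain genes with compound **5**, 21 as reported, was 36 with library size alone, 32 with only the groups compared, 6 at a threshold of 0.01, and between 1 and 8 with 1 library left out. That of lower mitochondrial ribosomal protein genes, 16 as reported, was 10 with DESeq2, 26 with upper-quartile scaling, 32 with library size alone, 25 with only the groups compared (and 1 higher), 6 at 0.01, and between 2 and 9 with 1 library left out. Fewer samples entered the fits that left out a library.

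Per kilobase, and in the order DMSO, compounds **4**, **5**, and **6**, the percent of mitochondrial mRNA was 3.39, 3.25, 5.71, and 3.07 for complex III, 50.9, 49.2, 47.3, and 50.2 for complex IV, and 13.9, 13.98, 13.5, and 12.998 for complex V. With pseudogene counts added it was 3.84 with compound **4** and 3.59 with compound **6** for complex III, and 8.96, 9.03, 8.64, and 8.18 for complex V. The share of all counts on the mitochondrial genome moved by less than the replicate SD with pseudogene counts added and with the counts of filtered genes as denominator. Leaving out 1 of 2 libraries moves a mean by less than the SD by construction and says nothing of stability. The tRNAs, at 0 counts, could not be compared, and why was not tested. The precision of the other genes is limited by 2 replicates per group.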
